A study of Homo sapiens with 18 samples.

Results

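The genes described here are 10 components and targets of the Notch pathway: the receptors NOTCH1, NOTCH2 and NOTCH3, the ligands JAG1, JAG2 and DLL1, and the target genes HES1, HEY1, HEYL and NRARP. They were taken by symbol from a table of raw read counts that lists 28266 genes, and all 10 were found in it. RNA-seq libraries were prepared from IMR90 ER:RAS cells, an established human lung fibroblast line that expresses a fusion of oncogenic RAS with the hormone-binding part of the oestrogen receptor. All 6 groups carried this fusion and were given the genotype label WT. Senescent cells received 100 nM 4-hydroxytamoxifen (4OHT), which activates the fusion protein and induces oncogene-induced senescence, and control cells received DMSO in its place. At day 7 both kinds of cells were given DMSO, IMP1088 at 300 nM or DDD86481 at 1.5 µM for a further 3 days, and RNA was collected at day 10. IMP1088 and DDD86481 inhibit N-myristoyltransferase, the enzyme that attaches the fatty acid myristate to the first glycine of proteins such as the ARF GTPases. The study asked how these inhibitors act on senescent compared with control cells, and reports that both selectively killed senescent cells. Each group held 3 libraries, which the study's supplement describes as independent experiments and the labels only number, and p-values measure the spread between them. The line is a single engineered model of senescence driven by RAS.

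Notch signalling passes between touching cells. A Jagged or Delta-like ligand on one cell binds a Notch receptor on its neighbour, the receptor is cut by an ADAM protease and then by gamma-secretase, and the freed intracellular part enters the nucleus, where it joins the DNA-binding protein RBPJ and a Mastermind co-activator to switch on genes of the HES and HEY families and NRARP. In senescent fibroblasts NOTCH1 is known to be dynamically regulated and to influence which proteins the cells secrete, and JAG1 is known to carry the signal to neighbouring cells.

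Total counts lay between 16143716 and 23189950 per library, and 14341 genes passed the filter on low counts. CDKN1A, which encodes the cell cycle inhibitor p21, lay at 341 to 410 CPM (read counts scaled to the size of the library) in control DMSO and 1950 to 2270 CPM in senescent DMSO libraries. The senescence markers also moved with the inhibitors. In senescent cells given DMSO, IMP1088 and DDD86481 the mean of CDKN1A was 2130, 1320 and 1390 CPM. That of CDKN2B was 226, 106 and 109 CPM, and that of LMNB1 was 2.08, 4.28 and 4.13 CPM. In control cells LMNB1 was at 27.2, 10.3 and 11.1 CPM and MKI67 at 21.6, 3.63 and 3.94 CPM. CDKN1A there was at 377, 344 and 340 CPM. All 8 fibroblast markers were detected in every group, but at levels that moved with senescence and with the inhibitors. Their sum was 24200 to 30300 CPM in control DMSO and 16400 to 16700 CPM in senescent DMSO libraries, where the mean of DCN went from 3040 to 7.73 CPM, that of LUM from 314 to 8.39 CPM and that of COL3A1 from 3700 to 296 CPM, while VIM went from 5040 to 11700 CPM. With an inhibitor the fibroblast sum was 11300 to 12100 CPM in senescent and 29600 to 34900 CPM in control cells. In senescent cells COL1A1 went from 3210 CPM to 831 CPM with IMP1088 and 1130 CPM with DDD86481. COL1A2 went the other way, from 708 to 1380 and 1690 CPM. The markers KRT5, SFTPC and CD3E were at 0 throughout. The summed level of 4 endothelial markers was 31.8 to 55.3 CPM in control DMSO, 19.6 to 24.1 CPM in senescent DMSO and 8.28 to 13.5 CPM in the senescent inhibitor libraries, and this order was that of TEK alone (means of 42 and 11.2 CPM in control and senescent DMSO). The other 3 were higher in senescent than in control DMSO cells, PECAM1 at 2.77 against 0.21 CPM, CDH5 at 1.77 against 0.0134 CPM and VWF at 5.82 against 1.12 CPM. The summed level of 3 smooth muscle markers, mostly ACTG2, was 359 to 443, 38.2 to 48 and 2.4 to 4.09 CPM in the same order, and 63.5 to 83.4 CPM in control cells given an inhibitor. The part of these markers in the results below was not tested. Control DMSO replicate 3 stood apart: 3.73% of its genes differed more than 2-fold from the mean of its group's other libraries, compared with 0.941% to 2.78% elsewhere. In that library the 2820 tested genes with at least 9000 exonic bases lay at a median of -0.23 (log2) from their group mean and the 1233 genes under 2000 bases at 0.32, while in control DMSO replicate 1 the same medians were 0.17 and -0.24. All 3 receptors and JAG1 fall in the long class, so their comparisons with control DMSO are given below with and without replicate 3.

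RBPJ binds sites with the core TGGGAA, and the stretch just upstream of the start of transcription was therefore examined. RefSeq start sites on GRCh38.p14 were used for 8 of the 10 genes. DLL1 and HEY1 were left out of this search, so whether their upstream stretches hold the core was not tested. The core, searched on both strands in the 250 bases before the start, was present for 2 of these 8, HES1 and HEYL, and in 20.8% of all 35116 windows of that length. The extended form GTGGGAA, which overlaps the core, was found for the same 2 genes and in 5.43% of windows. The upstream windows of 3 targets are printed 5′ to 3′ on the strand of the gene, with every core match on either strand in capitals, to show the paired matches of HES1 and HEYL and their absence from this window of NRARP.
HES1, chr3:194135898-194136147, plus strand: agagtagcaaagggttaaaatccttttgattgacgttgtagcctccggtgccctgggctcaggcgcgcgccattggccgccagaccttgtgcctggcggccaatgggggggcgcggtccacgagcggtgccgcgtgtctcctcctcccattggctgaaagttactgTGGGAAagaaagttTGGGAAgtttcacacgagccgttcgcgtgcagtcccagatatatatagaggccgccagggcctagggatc
HEYL, chr1:39639644-39639893, minus strand: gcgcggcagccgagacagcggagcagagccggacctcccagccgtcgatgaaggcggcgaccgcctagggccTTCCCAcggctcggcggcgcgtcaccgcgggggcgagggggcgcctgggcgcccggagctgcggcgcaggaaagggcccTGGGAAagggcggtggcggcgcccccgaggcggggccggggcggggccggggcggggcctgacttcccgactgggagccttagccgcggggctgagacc
NRARP, chr9:137302272-137302521, minus strand: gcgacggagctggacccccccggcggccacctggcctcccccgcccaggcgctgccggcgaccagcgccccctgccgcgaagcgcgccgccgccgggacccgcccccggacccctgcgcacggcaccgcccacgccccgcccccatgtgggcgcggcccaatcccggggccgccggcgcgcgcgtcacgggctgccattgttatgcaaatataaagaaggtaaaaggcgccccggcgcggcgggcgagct
In HES1 the matches begin 84 and 70 bases before the start, both in the direction of the gene. In HEYL they begin 178 and 99 bases before the start, the first on the opposite strand. These matches are a description of the letters and no measurement of binding.

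In senescent compared with control cells given DMSO, 5 of the 9 members tested rose and 1 fell (edgeR quasi-likelihood test, Benjamini-Hochberg adjusted p under 0.05). HEY1, NOTCH1, NOTCH3, JAG2 and HES1 rose, JAG1 fell, and NOTCH2, DLL1 and NRARP did not pass the threshold. Among all genes tested 32.5% rose and 36% fell in this comparison. The median log2 fold change of the 9 members was 0.60, against -0.05 for all genes. Both inhibitors were then compared with DMSO within each state. In senescent cells IMP1088 was accompanied by 2 members higher and 4 lower (all genes 20.6% and 23.9%) and DDD86481 by 3 higher and 3 lower (all genes 20.1% and 23.1%). In control cells only JAG2 passed for either inhibitor, 1 member higher and 0 lower each, at an all-gene background of 16.3% higher and 17.4% lower for IMP1088 and 17.8% and 18.7% for DDD86481. At an unadjusted p under 0.05 the lower members in control cells were also 0 for both inhibitors, and DESeq2 called 0 as well. HEYL did not pass the count filter and is given by its counts.

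**Figure D1:**
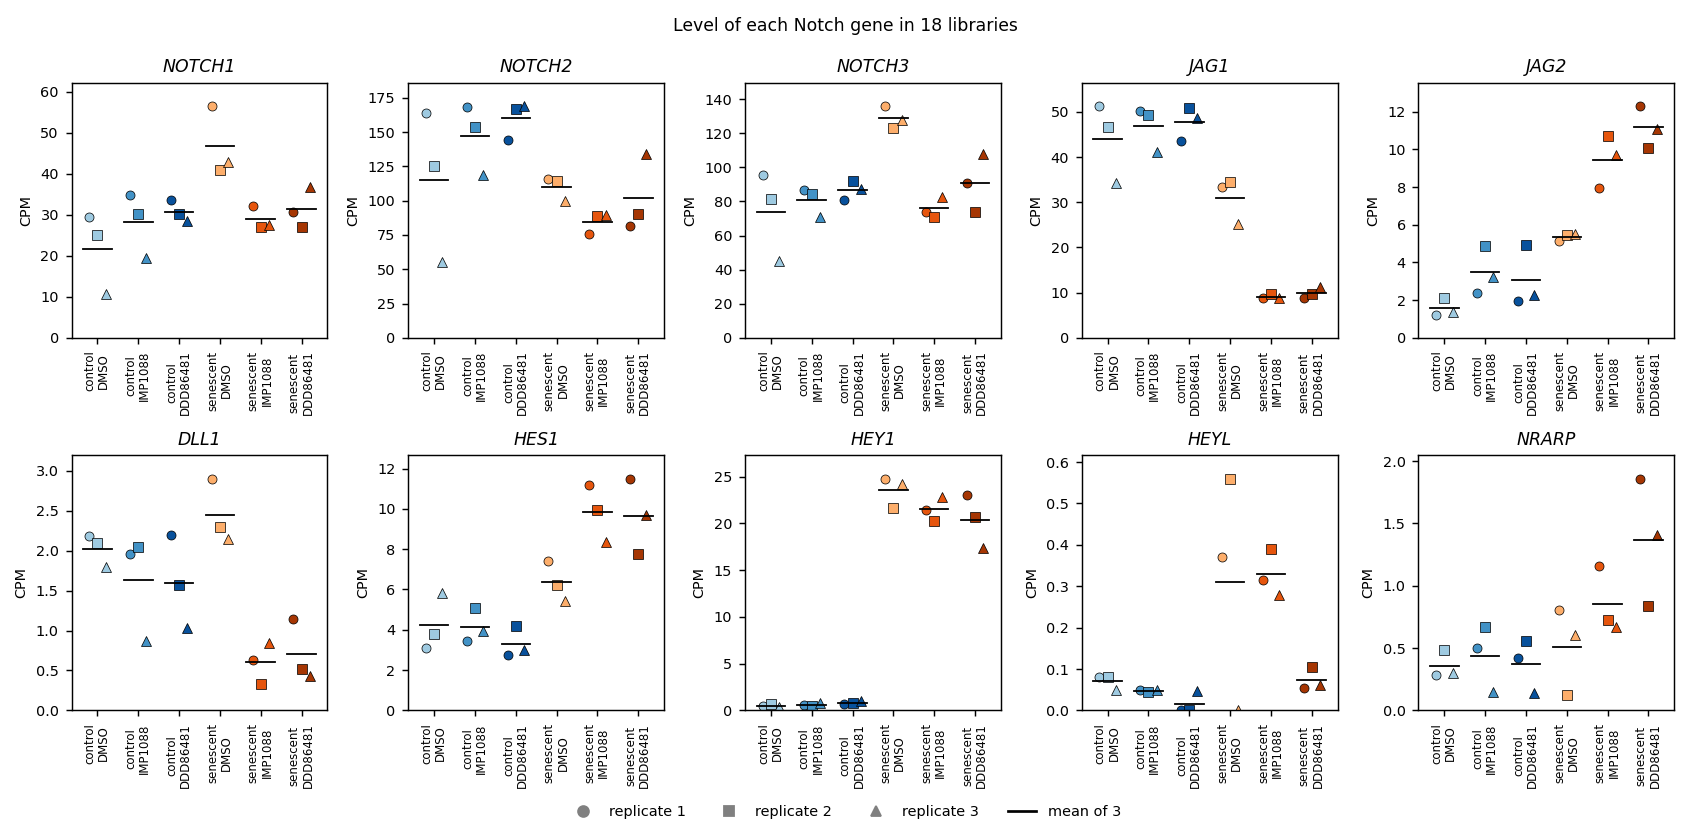
Level of each of the 10 genes in CPM (linear axis from 0) in the 18 libraries, by group on the horizontal axis. Points are single libraries, with a symbol for each replicate number, and lines are means of 3. HEY1 lies at 0.348 to 1.03 CPM in the 9 control libraries and at 17.4 to 24.8 CPM in the 9 senescent libraries, and JAG1 is lowest in the 6 senescent libraries given an inhibitor.

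NOTCH1 (chromosome 9, 139388885 to 139440500, minus strand, GRCh37) encodes a receptor best known for its roles in T cell development and leukaemia. Its level was 29.4, 25.0 and 10.7 CPM in the 3 control DMSO libraries and 56.5, 40.9 and 42.8 CPM in the senescent DMSO libraries. The groups did not overlap, and the difference was 1.10 ± 0.249 on the log2 scale (SE), a 2.14-fold rise with an adjusted p of 0.000604. Without control DMSO replicate 3 it was 0.78 (adjusted p = 0.000635), and with a trend on exonic length removed from every library it was 1.18 (adjusted p = 3.22e-05). In senescent cells NOTCH1 lay at 32.2, 27.1 and 27.5 CPM with IMP1088 and at 30.7, 26.9 and 36.7 CPM with DDD86481, all below the lowest senescent DMSO library. The IMP1088 difference of -0.69 ± 0.248 passed the test (adjusted p = 0.0287), whereas the DDD86481 difference of -0.57 ± 0.247 did not (adjusted p = 0.0678). The IMP1088 call was lost with DESeq2 (adjusted p = 0.052) and on leaving out senescent DMSO replicate 1, IMP1088 replicate 2 or IMP1088 replicate 3 (adjusted p = 0.136, 0.0853 and 0.0814). The DDD86481 difference passed in a fit without the count filter (adjusted p = 0.00367) and with only those 2 groups fitted (adjusted p = 0.00557). In control cells NOTCH1 ranged from 19.5 to 34.7 CPM with either inhibitor, overlapping DMSO, and did not pass (0.37 and 0.50, adjusted p = 0.269 and 0.126). Without control DMSO replicate 3 these values were 0.05 and 0.18 (adjusted p = 0.875 and 0.51), and without replicate 1 they were 0.64 and 0.77 and passed (adjusted p = 0.0448 and 0.0169), so that the choice of control library set their size. The DDD86481 value also passed without the count filter (adjusted p = 0.0198).

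NOTCH2 (chromosome 1, 120454176 to 120643366, minus strand, GRCh37) is a receptor with broad expression and known roles in liver, kidney and B cells. It was measured at 164, 125 and 55.5 CPM in control DMSO and at 116, 114 and 99.7 CPM in senescent DMSO libraries. The control values enclosed the senescent ones, and the difference was -0.07 ± 0.247 (adjusted p = 0.818). Leaving out control DMSO replicate 3, the lowest library, gave -0.40 with an adjusted p of 0.0357. Leaving out another library moved the value as far as 0.28, which did not pass, so that single libraries decided its sign. Levels in senescent cells were 75.8, 88.6 and 89.6 CPM with IMP1088 and 81.5, 90.3 and 134 CPM with DDD86481. Neither inhibitor comparison passed in either state, although the IMP1088 difference in senescent cells, -0.37 ± 0.249, passed when only those 2 groups were fitted (adjusted p = 0.00095). In control cells NOTCH2 differed by 0.36 and 0.47 with IMP1088 and DDD86481, by 0.03 and 0.14 without control DMSO replicate 3 (adjusted p = 0.93 and 0.556), and by 0.70 and 0.82 without replicate 1, which passed (adjusted p = 0.0192 and 0.00677). Without the count filter the DDD86481 value passed as well (adjusted p = 0.0153). The near-identical NOTCH2NL copies, which could share reads with NOTCH2, held 1.21% to 10.9% as many counts as NOTCH2. The highest share was in senescent DDD86481 replicate 1. These assigned counts do not bound the error in NOTCH2, and how far shared reads moved its values was not tested.

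NOTCH3 (chromosome 19, 15269849 to 15311806, minus strand, GRCh37) is the receptor typical of vascular mural cells. Control DMSO libraries held 95.4, 81.2 and 44.9 CPM and senescent DMSO libraries 136, 123 and 128 CPM. Every senescent DMSO library was above every control DMSO library, by 0.80 ± 0.181 (1.74-fold, adjusted p = 0.000606), and by 0.54 without control DMSO replicate 3 (adjusted p = 0.000571). With IMP1088 the senescent level was 74.1, 70.9 and 82.7 CPM, and with DDD86481 it was 91.1, 73.8 and 108 CPM. Both sets lay below the senescent DMSO libraries and within or near the range of control cells. The IMP1088 difference was -0.76 ± 0.182 (adjusted p = 0.0019). The DDD86481 difference was -0.50 ± 0.181 (adjusted p = 0.0307), and it missed the threshold on leaving out senescent DMSO replicate 1 or 3 or DDD86481 replicate 1 or 2, with an adjusted p of 0.153 at most. Control cells given an inhibitor held 71.1 to 92.1 CPM, and the differences from DMSO, 0.12 and 0.23, did not pass. Without control DMSO replicate 3 they turned to -0.13 and -0.03 (adjusted p = 0.472 and 0.898), and without replicate 1 the DDD86481 value was 0.46 (adjusted p = 0.039).

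Levels of different genes were compared per kilobase of exons. In senescent DMSO cells NOTCH3 was the highest receptor at 13.7 ± 0.699 CPM per kb (SD, n = 3), followed by NOTCH2 at 6.55 ± 0.52 and NOTCH1 at 3.73 ± 0.679, with no overlap between neighbours. In control DMSO cells NOTCH3 stood at 7.85 ± 2.77 and NOTCH2 at 6.85 ± 3.28 CPM per kb, and NOTCH1 was lowest at 1.73 ± 0.78. Within these libraries NOTCH3 made up 45.5%, 47.8% and 53.4% of the summed receptor level per kb. NOTCH2 made up 44%, 41.2% and 37.1%, less than NOTCH3 in each. With the longest transcript as the length, NOTCH2 at 10 CPM per kb came above NOTCH3 at 8.51 in control DMSO cells, and the senescent order held. In control DMSO replicate 3 NOTCH3 was still the higher, at 46.5% against 43.7% for NOTCH2. NOTCH3 thus made up a median of 47.8% of the summed receptor level per kb in control DMSO, 56.5% in senescent DMSO, 52.6% in senescent IMP1088 and 51.3% in senescent DDD86481 libraries, and 43.5% and 43.2% in control cells given IMP1088 and DDD86481. With the longest transcript as the length the medians were 41%, 50.1%, 46.3%, 44.6%, 37% and 36.8% in that order. In bulk RNA, fewer cells expressing a gene and less RNA per cell cannot be told apart.

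JAG1 (chromosome 20, 10618332 to 10654647, minus strand, GRCh37) encodes Jagged-1, the ligand mutated in Alagille syndrome, and it gave the largest response to both inhibitors among the well-expressed members. It stood at 51.3, 46.7 and 34.3 CPM in control DMSO and 33.4, 34.5 and 25.1 CPM in senescent DMSO libraries. The difference of -0.51 ± 0.143 passed the test (adjusted p = 0.00359), although control DMSO replicate 3 and senescent DMSO replicate 2 overlapped. Without that control library it was -0.66 (adjusted p = 8.5e-05). IMP1088 in senescent cells left 8.73, 9.78 and 8.74 CPM, and DDD86481 left 8.9, 9.66 and 11.3 CPM. All 6 of these libraries were far below the lowest senescent DMSO library. JAG1 fell by 1.77 ± 0.157 on the log2 scale with IMP1088 (adjusted p = 2.74e-08) and by 1.64 ± 0.156 with DDD86481 (adjusted p = 7.55e-08), 3.41-fold and 3.12-fold respectively. In control cells the same doses gave 50.2, 49.4 and 41.1 CPM and 43.5, 50.9 and 48.6 CPM, with differences of 0.09 ± 0.141 and 0.11 ± 0.141 that did not pass (adjusted p = 0.665 and 0.572). The gap between the inhibitor effects in the 2 states (senescent less control), tested as an interaction, was -1.86 ± 0.21 for IMP1088 (adjusted p = 4.32e-06) and -1.75 ± 0.209 for DDD86481 (adjusted p = 7.18e-06). Without control DMSO replicate 3 these gaps were -1.71 and -1.60 (adjusted p = 7.48e-07 and 1.55e-06). The differences in control cells were then -0.06 and -0.04 and did not pass (adjusted p = 0.759 and 0.848).

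JAG2 (chromosome 14, 105607319 to 105635161, minus strand, GRCh37) encodes the second Jagged ligand and went the other way. Control DMSO libraries had 1.21, 2.09 and 1.39 CPM and senescent DMSO libraries 5.12, 5.48 and 5.49 CPM, a rise of 1.77 ± 0.302 (3.4-fold, adjusted p = 3.08e-05). In senescent cells the level was 7.95, 10.7 and 9.7 CPM with IMP1088 and 12.3, 10.1 and 11.1 CPM with DDD86481. All 6 libraries exceeded senescent DMSO, and the rises were 0.81 ± 0.259 (adjusted p = 0.0149) and 1.05 ± 0.258 (adjusted p = 0.00239). Without IMP1088 replicate 2 the former was 0.72 with an adjusted p of 0.0607. Control cells had 2.36, 4.9 and 3.25 CPM with IMP1088 and 1.98, 4.93 and 2.29 CPM with DDD86481. These were rises of 1.16 ± 0.308 (adjusted p = 0.00653) and 0.95 ± 0.317 (adjusted p = 0.0247), the second with 1 library, replicate 2, well above the others. Without that library the DDD86481 value was 0.44 (adjusted p = 0.263). The DDD86481 call was also lost without control DMSO replicate 1 (0.78, adjusted p = 0.0714) or replicate 3 (0.87, adjusted p = 0.0627) and with only those groups fitted (0.95, adjusted p = 0.102). Without the counterpart of that library in the IMP1088 group, the IMP1088 value was 0.84 (adjusted p = 0.0617). The effect in senescent minus control cells was -0.35 ± 0.403 for IMP1088 and 0.11 ± 0.418 for DDD86481 and did not pass for either (adjusted p = 0.549 and 0.871). A long non-coding RNA on the same strand overlaps 7.33% of the exonic bases of JAG2.

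The balance of the 2 Jagged ligands, set per kilobase of exons, differed between control DMSO, senescent DMSO and senescent inhibitor libraries without overlap. JAG2 made up 3.31%, 6.12% and 5.57% of the JAG1 plus JAG2 level in control DMSO and 18.2%, 18.7% and 24.2% in senescent DMSO libraries. It reached 56.9%, 61.3% and 61.7% with IMP1088 and 66.7%, 60.3% and 58.8% with DDD86481 in senescent cells. JAG1 was the more abundant ligand in all 9 control and all 3 senescent DMSO libraries, and JAG2 in the 6 senescent libraries given an inhibitor. Control cells given an inhibitor ranged from 6.22% to 12.6%. With the longest transcript as the length, the medians were 4.01%, 14%, 52.9% and 51.8% in the first 4 groups named, with 48.3% as the lowest inhibitor library, so the 6 libraries then lay around equality. No test was run on these shares, which were chosen after the values of both genes were seen.

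**Figure D2:**
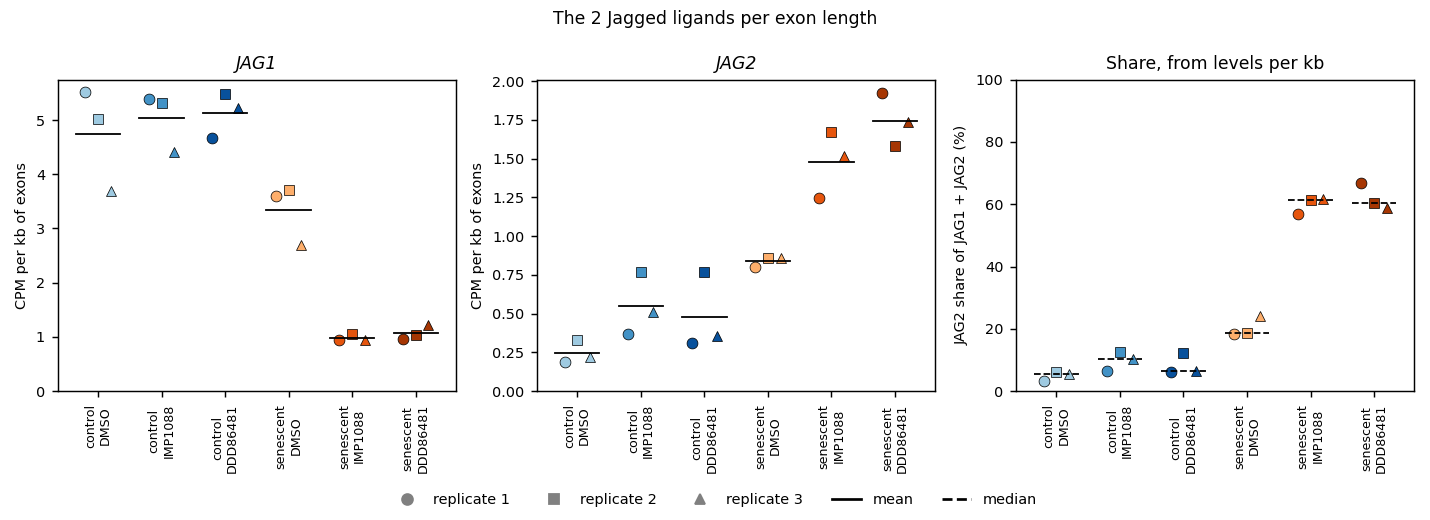
JAG1 and JAG2 in CPM per kilobase of exons (linear axes from 0, mean lines) and the JAG2 share of their sum in percent (median lines) for the 18 libraries by group. The share lies at 3.31% to 12.6% in control cells, 18.2% to 24.2% in senescent DMSO cells and 56.9% to 66.7% in senescent cells given an inhibitor.

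DLL1 (chromosome 6, 170591294 to 170615653, minus strand, GRCh37) encodes the Delta-like ligand known from somite segmentation. Its counts were low, between 6 and 54 per library. Control DMSO libraries had 2.18, 2.09 and 1.79 CPM and senescent DMSO libraries 2.9, 2.3 and 2.14 CPM, a difference of 0.27 ± 0.321 that did not pass (adjusted p = 0.468). Senescent cells had 0.631, 0.335 and 0.841 CPM with IMP1088 and 1.15, 0.522 and 0.429 CPM with DDD86481. All 6 libraries were below every senescent DMSO library, and DLL1 fell by 2.01 ± 0.395 (adjusted p = 0.000332) and by 1.78 ± 0.385 (adjusted p = 0.000846). The differences in control cells, -0.31 ± 0.327 and -0.35 ± 0.332, did not pass (adjusted p = 0.49 and 0.428). DLL1 shares 9.69% of its exonic bases with FAM120B on the opposite strand. The library kit was directional, and the strand setting of the count step is not given in the sources used here.

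HES1 (chromosome 3, 193853937 to 193856521, plus strand, GRCh37) encodes a transcriptional repressor that is the classical direct target of Notch. Its level was 3.1, 3.78 and 5.82 CPM in control DMSO and 7.41, 6.23 and 5.44 CPM in senescent DMSO libraries. The groups overlapped at control DMSO replicate 3, the library that stood apart, and the rise of 0.60 ± 0.228 passed with an adjusted p of 0.0256. Without that library it was 0.88 (adjusted p = 0.00141). It missed the threshold with upper quartile scaling (0.44, adjusted p = 0.1) and without control DMSO replicate 1 or 2 or senescent DMSO replicate 1, where it was 0.41, 0.49 and 0.47 (adjusted p = 0.121, 0.105 and 0.113), and with only those groups fitted (0.61, adjusted p = 0.0509). In senescent cells HES1 lay at 11.2, 9.95 and 8.35 CPM with IMP1088 and 11.5, 7.78 and 9.69 CPM with DDD86481, above all senescent DMSO libraries. The rises were 0.63 ± 0.218 (adjusted p = 0.0228) and 0.61 ± 0.218 (adjusted p = 0.0301). Each was lost on leaving out any of 4 of the 6 libraries compared, with adjusted p up to 0.101 and 0.142. Control cells had 3.46, 5.08 and 3.93 CPM with IMP1088 and 2.77, 4.2 and 2.99 CPM with DDD86481, and neither set passed the test against DMSO.

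HEY1, on chromosome 8, encodes a repressor of the same class that is known from heart and vessel development, and it had the largest difference between states of any member. It was nearly silent in control cells, with 0.524, 0.644 and 0.348 CPM in the DMSO libraries, and stood at 24.8, 21.7 and 24.2 CPM in the senescent DMSO libraries. The rise was 5.50 ± 0.194, or 45.3-fold (adjusted p = 1.44e-15), and it was 5.32 without control DMSO replicate 3. Senescent cells kept 21.4, 20.3 and 22.8 CPM with IMP1088 and 23.1, 20.7 and 17.4 CPM with DDD86481. The differences from DMSO were -0.13 with a 95% interval of -0.41 to 0.14 and -0.21 with an interval of -0.48 to 0.07, and neither passed (adjusted p = 0.432 and 0.214). Control cells had 0.602, 0.49 and 0.777 CPM with IMP1088 and 0.678, 0.784 and 1.03 CPM with DDD86481, differences of 0.27 ± 0.298 and 0.70 ± 0.284 (adjusted p = 0.567 and 0.065). Per kilobase of exons HEY1 made up 4.72% ± 2.18 of the HES1 plus HEY1 level in control DMSO and 58.3% ± 3.67 in senescent DMSO cells, and 45.2% ± 4.72 and 44.4% ± 4.97 with IMP1088 and DDD86481 (SD, n = 3).

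HEYL (chromosome 1, 40089107 to 40105315, minus strand, GRCh37), another repressor of this class, was at the limit of detection. Its counts were 2, 2 and 1 in control DMSO, 6, 9 and 0 in senescent DMSO, 6, 7 and 5 in senescent IMP1088 and 1, 2 and 1 in senescent DDD86481 libraries, and 0 to 1 in control cells given an inhibitor. The senescent DMSO libraries thus enclosed the control ones, and no fold is given. In a fit without the count filter its differences did not pass for senescence (adjusted p = 0.0525) or for DDD86481 in senescent cells (adjusted p = 0.118).

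NRARP (chromosome 9, 140194083 to 140196723, minus strand, GRCh37) encodes a small ankyrin repeat protein that is switched on by Notch and damps its signal. It had 2 to 34 counts per library. The level was 0.282, 0.483 and 0.299 CPM in control DMSO and 0.803, 0.125 and 0.604 CPM in senescent DMSO libraries, which spanned the control values (difference 0.52 ± 0.591, adjusted p = 0.449). It was 1.16, 0.727 and 0.673 CPM with IMP1088 and 1.86, 0.836 and 1.41 CPM with DDD86481 in senescent cells. The DDD86481 difference of 1.39 ± 0.497 passed (adjusted p = 0.0284) and the IMP1088 difference of 0.73 ± 0.531 did not (adjusted p = 0.281). Leaving out any of 4 of the 6 libraries ended the DDD86481 call, and without senescent DMSO replicate 2, the lowest library, the value was 0.96 (adjusted p = 0.135).

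**Figure D3:**
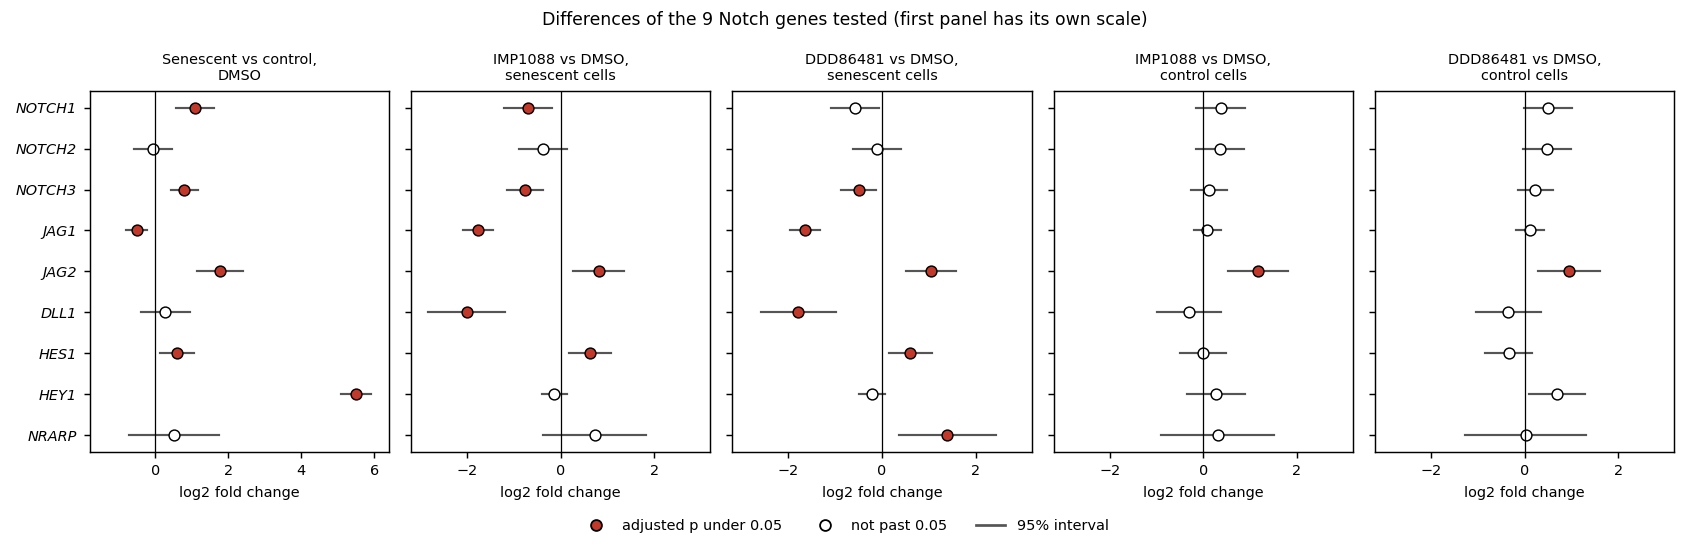
Log2 fold change of each of the 9 genes tested in the 5 comparisons, with 95% intervals as lines. Filled points passed an adjusted p of 0.05 and open points did not, and the first panel has a wider scale for HEY1 at 5.50. JAG1 and DLL1 lie below 0 with both inhibitors in senescent cells and have intervals that include 0 in control cells.

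The difference between the inhibitor effects in the 2 states was tested for every member. For IMP1088, 0 members had a higher and 4 a lower effect in senescent than in control cells, NOTCH1, NOTCH3, JAG1 and DLL1 (all genes 12.1% and 14.2%). With edgeR 0 members were also higher at an unadjusted p under 0.05, and DESeq2 called 0. For DDD86481 the same 4 genes and HEY1 had a lower effect and HES1 a higher one, 5 and 1 of the 9 (all genes 15.9% and 14.4%). These interactions used the control DMSO libraries. With replicate 3 left out the IMP1088 values of NOTCH1, NOTCH3 and DLL1 were -0.74, -0.63 and -1.62 (adjusted p = 0.0317, 0.00892 and 0.0324). For DDD86481, NOTCH1 and NOTCH3 were at -0.75 and -0.47 (adjusted p = 0.0273 and 0.0418), while DLL1, HES1 and HEY1 no longer passed (adjusted p = 0.0657, 0.108 and 0.117). With the length trend removed NOTCH3 and HES1 did not pass for DDD86481 (adjusted p = 0.0577 and 0.111). The median log2 fold change of the 2820 longest genes was -0.17 with IMP1088 in senescent and 0.12 in control cells.

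The 2 inhibitors were compared directly, at doses that differ. None of the 9 members passed in senescent or in control cells, and edgeR called 0% of all genes in either direction in both states. At an unadjusted p under 0.05 the counts were 0 members in each state and 570 genes in senescent and 141 in control cells, and DESeq2 called 0 genes in each. In senescent cells the IMP1088 minus DDD86481 difference of JAG1 was -0.13, with a 95% interval of -0.47 to 0.21. That of NOTCH3 was -0.26 (interval -0.64 to 0.12), that of JAG2 -0.24 (-0.75 to 0.27) and that of HES1 0.03 (-0.41 to 0.47). The intervals were widest for DLL1, -1.21 to 0.76, and NRARP, -1.60 to 0.27, so that these intervals include differences of over 2-fold between the inhibitors. HEYL, with 5 to 7 counts with IMP1088 and 1 to 2 with DDD86481, had an unadjusted p of 0.0266 and an adjusted p of 1 in the fit without the count filter.

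The wider pathway was described with 49 further genes: another receptor, other ligands, and the genes for ligand uptake, receptor glycosylation, cleavage and turnover, the nuclear complex, co-repressors and the other HES and HEY genes. Of these 46 were tested, MFNG, HES5 and HEY2 falling under the count filter. In senescent compared with control DMSO cells 14 rose and 17 fell, near the all-gene shares of 32.5% and 36%, with a median log2 fold change of -0.003 against -0.05 for all genes. In senescent cells 9 rose and 17 fell with IMP1088 (median -0.26) and 11 rose and 16 fell with DDD86481 (median -0.16), against medians of -0.04 and all-gene shares of 20.6% and 23.9% for IMP1088 and 20.1% and 23.1% for DDD86481. In control cells 3 rose and 5 fell with IMP1088 (all genes 16.3% and 17.4%) and 7 rose and 7 fell with DDD86481 (all genes 17.8% and 18.7%).

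NOTCH4, the remaining receptor and mainly an endothelial one, stood at 0.988, 1.12 and 1.15 CPM in senescent DMSO libraries, 1.84, 1.9 and 1.91 CPM with IMP1088 and 2.29, 1.51 and 1.66 CPM with DDD86481. It rose by 0.79 (adjusted p = 0.014) and 0.74 (adjusted p = 0.0215), the opposite direction to NOTCH3. These NOTCH4 levels were as low as those of DLL1, and fits with a library left out are not given for it. DLL4, the Delta-like ligand of growing vessels, was at 10.3, 5.29 and 6.26 CPM in senescent DMSO and at 2.75 to 4.48 CPM with either inhibitor. It rose by 0.65 in senescence (adjusted p = 0.0177) and was lower in all 4 inhibitor comparisons, by -1.25 and -1.01 in senescent and -1.01 and -1.24 in control cells. DLL3, which acts within the cell, was lower with DDD86481 in control cells alone by the test, at -1.37 (adjusted p = 0.0468).

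NEURL1B, an E3 ubiquitin ligase that promotes ligand uptake, had 19.9, 16.2 and 13 CPM in control DMSO and 0.247, 0.623 and 1.04 CPM in senescent DMSO libraries. It fell by 4.64 on the log2 scale in senescence (adjusted p = 1.32e-10), and again with IMP1088 (-1.95, adjusted p = 0.0246) and DDD86481 (-1.64, adjusted p = 0.0471) in senescent cells. These further falls started from low counts, as 3 counts equal 0.165 to 0.187 CPM in the senescent DMSO libraries. MIB2, another ligase for the ligands, rose with both inhibitors in senescent cells, from 45.1 to 59.2 CPM in DMSO to 91.8 to 98.4 CPM and 95.3 to 114 CPM (0.87 and 0.98 on the log2 scale). ADAM17, a protease able to cut receptors and ligands, rose in all 4 inhibitor comparisons after a lower level in senescence (-0.38), by 0.62 and 0.78 in senescent and 0.67 and 0.70 in control cells. Of the 9 genes for cleavage, 4 rose and 4 fell in senescence (all genes 32.5% and 36%). ITCH, a ubiquitin ligase acting on Notch, rose with both inhibitors in control cells (0.28 and 0.31). IAH1 shares 10.3% of the exonic bases of ADAM17, and another annotated gene shares 23.4% of those of ITCH.

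RBPJ itself fell in all 5 comparisons. It stood at 282, 295 and 303 CPM in control DMSO and 254, 258 and 212 CPM in senescent DMSO libraries (-0.28, adjusted p = 0.0215), and the 4 inhibitor differences lay between -0.49 and -0.42. Of the 9 genes of the nuclear activator complex, 6 fell and 1 rose with IMP1088 and 5 fell and 1 rose with DDD86481 in senescent cells, where 23.9% and 23.1% of all genes fell. In control cells 3 fell and 1 rose with IMP1088 and 3 fell and 2 rose with DDD86481 (17.4% and 18.7% of all genes fell), and in senescence 4 fell and 0 rose (36% of all genes fell). MAML3, a Mastermind co-activator, fell by 0.88 with IMP1088 and 0.90 with DDD86481, from 12.1 to 14.2 CPM to 6.11 to 8.58 CPM. The acetyltransferase gene KAT2B was lower in all 5 comparisons, by -0.97 in senescence and by -0.60 to -0.44 with inhibitor. EP300, which encodes the co-activator p300, rose in control cells with IMP1088 (0.74, adjusted p = 0.0465) and DDD86481 (0.95, adjusted p = 0.0117), and SPEN, a large co-repressor, with DDD86481 (0.95, adjusted p = 0.0137). The control DMSO levels of EP300, 62.9, 37 and 21.3 CPM, and of SPEN, 28.9, 19.8 and 7.71 CPM, were lowest in replicate 3.

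CIR1, a co-repressor that binds RBPJ, fell by 1.14 in senescence (adjusted p = 3.56e-05) and rose by 1.00 and 0.83 with IMP1088 and DDD86481 in senescent cells (adjusted p = 0.000351 and 0.00192). NUMB, an adaptor that promotes receptor uptake, rose from 66.5 to 89.1 CPM to 333 to 362 CPM in senescence (2.16, adjusted p = 8.03e-13). DTX1, a ubiquitin ligase of the Deltex family, had 32, 20 and 15 counts in control DMSO and 1, 0 and 1 in senescent DMSO libraries. With 3 to 7 counts it passed as higher with DDD86481 in senescent cells (adjusted p = 0.0189), and its fitted fold changes rest on these few counts. Among the other HES genes HES7 and HES4 rose in senescence and HES6 did not pass, where 32.5% of all genes rose and 36% fell. HES7, the oscillating repressor of somite formation, rose from 0.806 to 1.19 CPM to 4.17 to 5.38 CPM (2.21) and by 0.58 and 0.54 with the inhibitors in senescent cells. HES4 rose by 1.87 in senescence and by 0.84 with DDD86481. HES2 had 2, 1 and 0 counts in control DMSO and 7, 6 and 7 in senescent DMSO libraries (adjusted p = 0.00188). No control DMSO or control IMP1088 library held over 3 counts of HES2, and its control DDD86481 mean lay under that level. HES2 thus passed the count filter through the senescent libraries, where it was higher. Its rise is therefore not set against the all-gene shares. HES5 and HEY2 did not pass the filter. HES6, which opposes HES1, fell in control cells with IMP1088 (-1.31) and DDD86481 (-0.92).

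**Figure D4:**
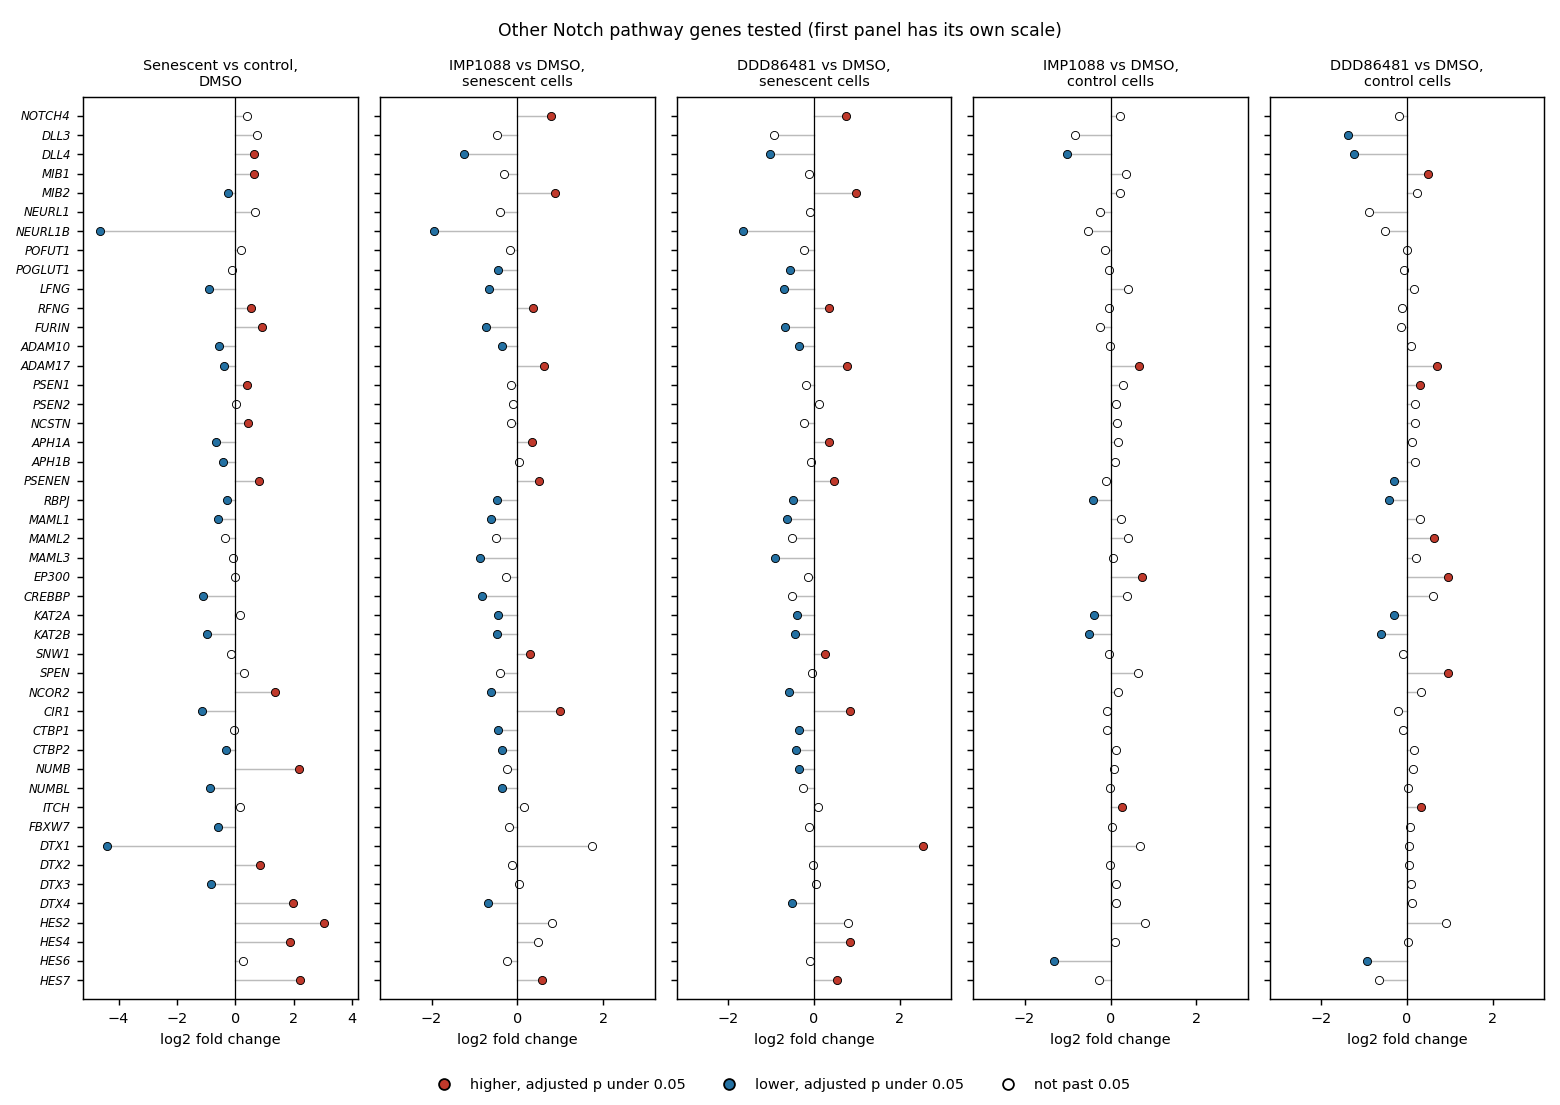
Log2 fold change of the 46 other Notch pathway genes tested, ordered by role from receptors and ligands at the top to HES genes at the bottom, in the 5 comparisons. Red points rose and blue points fell at an adjusted p under 0.05, white points did not pass, and the first panel has a wider scale. NEURL1B and DTX1 are the lowest in senescence and HES2 the highest, and the control-cell panels hold the fewest filled points. DTX1 and HES2 rest on few counts.

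For each member the gene with the most similar profile was sought among 12736 other genes, by Pearson correlation of log2 CPM over the 18 libraries, which fall into 6 groups and share the state of the cells. JAG1 was closest to VCAN, the matrix proteoglycan versican (r = 0.9873), and HEY1 to LCE1F, a late cornified envelope gene (r = 0.9953). NOTCH3 was closest to ANKRD52 (r = 0.9595), NOTCH2 to USP9X (r = 0.9657) and NOTCH1 to TRIP12 (r = 0.9235). JAG2 was closest to RENBP (r = 0.9524), DLL1 to FAM131B (r = 0.917), HES1 to UBE2D2 (r = 0.9662) and NRARP to XKR8 (r = 0.7999). These values are descriptions of profiles across the same libraries.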

How the data were processed

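Poly(A) RNA was sequenced in 18 bulk libraries. The authors deposited 1 table of raw counts per gene symbol, with no normalization. The study's methods name hg19, TopHat, HTSeq and Ensembl annotation, whereas the submitters' processing notes name hg38, DRAGEN, STAR 2.7.8a and DESeq2 1.32.0, so the build behind the counts is uncertain; 95.5% of the symbols matched RefSeq on GRCh38 and 88.6% GENCODE on GRCh37. Gene positions and exon lengths are from GENCODE v44 lifted to GRCh37.

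Counts were tested with edgeR 4.0.16 (R 4.3.3): filterByExpr, TMM scaling, 1 quasi-likelihood fit of all 6 groups, and Benjamini-Hochberg adjustment over 14341 genes at 0.05. SE is the log2 fold change divided by the root of F. CPM use the TMM-scaled library size. The fit was tested on simulated data. Alternatives were RLE and upper quartile scaling, no count filter, DESeq2 1.42.0, fits of only the groups compared, a replicate block, each library left out in turn, and, chosen after seeing the data, a lowess trend on exonic length removed. Same-numbered replicates deviated together (every r over 0.1) between control DMSO and control IMP1088 (0.394, 0.123, 0.231), control IMP1088 and DDD86481, and senescent IMP1088 and DDD86481. The other pairs of groups did not, and between control DMSO and senescent DDD86481 the r were -0.176, -0.0377 and -0.292. The labels give the numbers only.

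All 10 members are named. From the wider list the text names RBPJ and, by rule, up to 3 highest and 3 lowest genes called in each comparison with DMSO, and NOTCH4. RBPJ was chosen after its values were seen. Members and lists were chosen with earlier results of these data known. The libraries were directional and the study's methods aligned in first-strand mode, but which pipeline made the counts, and the strand setting of its counting, are not given in the sources used here, so genes that share exons are uncertain.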

Additional observations from a re-analysis of the deposited data

Results flagged for a closer look

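For IMP1088, the effect in senescent cells differed from the effect in control cells, by a test of the difference itself (interaction term, edgeR), for 4 genes. The difference was -1.06 ± 0.352 (log2, SE) for NOTCH1 (adjusted p = 0.0318), -0.89 ± 0.256 for NOTCH3 (adjusted p = 0.0154), -1.86 ± 0.21 for JAG1 (adjusted p = 4.32e-06) and -1.70 ± 0.519 for DLL1 (adjusted p = 0.0211). All 4 genes were lower with IMP1088 in senescent cells, and none passed the test in control cells. The call was lost on leaving out 1 library in 5 of 12 cases for NOTCH1, 1 for NOTCH3 and 4 for DLL1, with adjusted p up to 0.113, 0.052 and 0.0684. With only the groups compared, NOTCH1 did not pass (-1.02, adjusted p = 0.0747).

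For DDD86481 the same test singled out 6 genes. The difference was -1.07 ± 0.351 for NOTCH1 (adjusted p = 0.0273), -0.73 ± 0.256 for NOTCH3 (adjusted p = 0.037), -1.75 ± 0.209 for JAG1 (adjusted p = 7.18e-06) and -1.43 ± 0.514 for DLL1 (adjusted p = 0.0409). It was 0.95 ± 0.324 for HES1 (adjusted p = 0.0325), which rose with DDD86481 in senescent cells, and -0.90 ± 0.313 for HEY1 (adjusted p = 0.0349), which passed in neither state alone. In control cells the HEY1 value rests on 7 to 16 counts with DMSO and 13 to 22 with DDD86481. Only JAG1 passed whichever of the 12 libraries was left out, and the highest adjusted p of the other 5 genes in those fits were 0.0799, 0.101, 0.143, 0.108 and 0.179 in the order given. With only the groups compared, NOTCH1, NOTCH3 and HEY1 did not pass (adjusted p = 0.0521, 0.0942 and 0.0701), and HEY1 did not without the count filter (adjusted p = 0.05). The comparisons for the 2 inhibitors share their DMSO libraries and are not independent of each other.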

How the results depend on the processing

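The 9 members gave 1160 values under the alternatives: 1062 kept their side of the threshold, 81 fell short of it, 17 newly passed and 0 called values reversed. Among the 1062 that kept their side, 42 values, over 22 results, changed sign, and none of them passed. With each library left out in turn, the number of members called ranged from 5 to 7 for senescence, 3 to 5 for IMP1088 and for DDD86481 in senescent cells, 0 to 3 for each in control cells, and 1 to 6 and 2 to 7 for the IMP1088 and DDD86481 interactions. DDD86481 in control cells called 3 members without the count filter and 0 of 8 with only those groups fitted, where the interaction called 3. Without control DMSO replicate 3 that interaction called 3, and with the length trend removed 4, against 6. The causes were not tested. In the senescence comparison and the 4 comparisons of an inhibitor with DMSO, JAG1, DLL1 and HEY1 kept their side of the threshold throughout, except that HEY1 with DDD86481 in control cells passed without control DMSO replicate 2 (adjusted p = 0.0428), and JAG1 kept both interactions. The replicate block left 6, 6, 6, 1, 1, 4, 6, 0 and 0 members called in the 9 comparisons and changed no member's call. Upper quartile scaling shifted all genes by -0.16 in senescence, where the wider list then held 12 higher and 21 lower, and left 1 of its genes higher with IMP1088 in control cells against 3. Another transcript length moved 31 of 60 levels per kilobase by over 1 SD. Depth limits HEYL, NRARP, DLL1, DTX1 and HES2, whose counts were at most 54 in any library. It also limits NEURL1B and NOTCH4 in senescent cells and HEY1 in control cells.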
